A study of Mus musculus with 13 samples.

Results

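Methylation of CpGs near the cut sites of a restriction enzyme was read by RRBS (bisulfite sequencing of a reduced part of the genome) in 13 mouse libraries. Windows of 1 kb on the autosomes were selected on their methylation in fibroblasts and in male induced pluripotent stem cells (iPSC): a region was a member when it had under 40 CpG positions, at least 20 reads in pooled mouse embryonic fibroblasts (MEF) and in pooled male (XY) iPSC, a pooled level of 70% or more in MEF and of 30% or less in XY iPSC. The level is the percent of reads over the CpGs of a region that were methylated. Of 199321 regions with enough reads, 131145 were at 70% or more in MEF, and 6293 of these were members, 4.80% of the regions that started high and 3.16% of all with enough reads. The values in MEF and XY iPSC chose the members and are given as a description only. The SSEA1 sorted cells, the XO iPSC and the XaXa iPSC did not enter the choice.

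The libraries were 2 of female iPSC marked XaXa (numbers 7 and 8), 4 of female iPSC marked XO (3, 5, 6 and 9), 3 of male iPSC (1, 2 and 4), 1 each of male cells positive and negative for the surface antigen SSEA1, by which cultures under reprogramming are sorted, and 2 of male MEF (4 and 5). All iPSC had been separated from their feeder cells. The labels give no strain, transgene, line or passage, and expression of cell type markers was not measured. Where separate cultures are not named, p-values reflect no more than the spread among these libraries, which may be technical.

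In mammals, methylated CpGs at a gene start go together with a silent gene, and most CpGs outside CpG-rich starts are methylated in somatic cells. Reprogramming of fibroblasts resets part of this pattern. Genes used only in germ cells are a known class with starts that are methylated in somatic cells. Mouse pluripotent cells with both X chromosomes active are known for low methylation over the whole genome.

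Reads over CpGs ranged from 4784488 in XO 9 to 143148634 in XaXa 8. Reads on X, relative to autosomes and to the mean of the XY iPSC, were 1.45 and 1.38 in XaXa 7 and 8, against 1.34, 1.21, 1.02 and 1.38 in XO 3, 5, 6 and 9. The X depth of the libraries labelled XO 3, 5 and 9 therefore lay above that of male cells, and only XO 6 was near it. The library labelled MEF 5 had a relative X depth of 1.28 and a Y share of 0.0262% of autosomal reads, against 0.897 and 0.0690% in MEF 4, so it goes against its male label. The number of members, the group medians and the counts between sorted cells were recomputed without MEF 5, and the XaXa against XO results without XO 3, 5 and 9; the shares by CpG number, distance to starts, patterns, gene lists and runs were not recomputed without MEF 5. With MEF 5 left out of the choice there were 3540 members in place of 6293, with medians of 81.7% in SSEA1 positive cells, 82.7% in SSEA1 negative cells, 13.3% in XaXa and 23.6% in XO, and with MEF 4 left out there were 5696.

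Sequences of the starts of 4 genes that lie in or beside members are shown first, because they let the CpGs behind the values be seen. Each is the 250 bases before the start, read 5′ to 3′ on the gene's strand, from RefSeq (GRCm38.p6). Capitals mark the CpGs that had reads in any library. Rad51c, a recombination gene, is at chr11:87404955-87405204 on the minus strand, D1Pas1, a testis gene, at chr1:186967166-186967415 on the plus strand, Jade1, a chromatin gene, at chr3:41555484-41555733 on the plus strand, and Rpl22, a gene of a ribosomal protein, at chr4:152324186-152324435 on the plus strand.
Rad51c: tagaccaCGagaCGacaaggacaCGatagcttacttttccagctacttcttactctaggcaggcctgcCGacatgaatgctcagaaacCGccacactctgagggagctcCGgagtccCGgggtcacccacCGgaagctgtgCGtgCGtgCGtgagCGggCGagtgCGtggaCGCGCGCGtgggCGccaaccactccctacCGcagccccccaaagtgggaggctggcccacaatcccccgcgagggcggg
D1Pas1: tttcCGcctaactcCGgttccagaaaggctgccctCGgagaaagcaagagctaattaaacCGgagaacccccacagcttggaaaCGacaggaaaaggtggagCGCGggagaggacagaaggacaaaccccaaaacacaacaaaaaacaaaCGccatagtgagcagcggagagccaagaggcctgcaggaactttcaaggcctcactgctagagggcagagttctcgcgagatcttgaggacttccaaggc
Jade1: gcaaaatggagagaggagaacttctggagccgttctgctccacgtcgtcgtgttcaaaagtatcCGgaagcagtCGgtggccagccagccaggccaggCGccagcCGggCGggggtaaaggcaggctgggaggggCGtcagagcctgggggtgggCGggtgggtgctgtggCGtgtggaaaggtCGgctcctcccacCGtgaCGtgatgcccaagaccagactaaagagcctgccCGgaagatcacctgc
Rpl22: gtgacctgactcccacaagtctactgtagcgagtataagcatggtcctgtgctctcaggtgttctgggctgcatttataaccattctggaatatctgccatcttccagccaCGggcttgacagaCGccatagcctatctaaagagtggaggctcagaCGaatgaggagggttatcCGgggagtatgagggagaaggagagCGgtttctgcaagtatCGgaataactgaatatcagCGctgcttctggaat
In the Rad51c sequence 20 of 23 CpGs had reads, and their pooled level was 1.66% in XaXa, 3.62% in XO, 9.51% in XY iPSC, 61.8% in SSEA1 positive cells, 80.3% in SSEA1 negative cells and 69.9% in MEF. In the D1Pas1 sequence 8 of 11 CpGs had reads, at 0.602% in XaXa, 22.3% in XO, 15.9% in XY iPSC, 89.8% in SSEA1 positive cells, 94.4% in SSEA1 negative cells and 91.8% in MEF. In the Jade1 sequence the levels of 12 of 16 CpGs were 1.52% in XaXa, 2.09% in XO and 3.55% in XY iPSC, while they were 98.8% in SSEA1 positive cells, 90.9% in SSEA1 negative cells and 92.9% in MEF. In the Rpl22 sequence the levels of 7 of 8 CpGs were 10.3% in XaXa, 20.6% in XO, 25.1% in XY iPSC, 92.3% in SSEA1 positive cells, 93.0% in SSEA1 negative cells and 92.0% in MEF. All 4 starts were at 61.8% or more in both sorted populations and at 22.3% or less in both female iPSC groups. The CpGs counted had reads in any library, so the groups rest on different ones. The 61.8% at Rad51c rests on 55 reads, with 0 CpGs at 10 reads. At Jade1, SSEA1 negative cells had 33 reads and MEF 85, each with 1 CpG at 10 reads. At Rpl22, each sorted population and MEF had 4 such CpGs.

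The members had a median of 8 CpG positions (1 to 39), against 5 for all regions at 70% or more in MEF. Their pooled MEF level had a median of 83.3% and their pooled XY level one of 20.4%. Of the 6293 members, 2359 had 100 or more reads in both groups and 2964 had 10 or more reads in each of the 13 libraries. Just inside the MEF threshold, regions near Limk2, Hormad2 and Sart1 stood at 70%, and just outside it the nearest were those by Mcf2l, Trib2 and Msrb1, with pooled MEF levels of 69.94%, 69.94% and 69.93%. Members just inside the XY threshold stood at 30%, and the regions just outside it at 30.01% to 30.02%.

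In SSEA1 positive cells the members were still methylated. Their median level was 82.2% over the 5545 members with 10 reads, against 83.3% over all regions at 70% or more in MEF. In SSEA1 negative cells it was 83.2% over 5590 members, against 83.9% over all such regions. Of the members, 77.8% were at 70% or more in SSEA1 positive cells and 80.4% in SSEA1 negative cells, while 1.57% and 1.06% were at 30% or less. Of all regions at 70% or more in MEF, 80.8% and 83.5% were at 70% or more in SSEA1 positive and negative cells, and 0.652% and 0.423% at 30% or less. Each sorted population is 1 library, so these values have no replicate check.

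**Figure D1:**
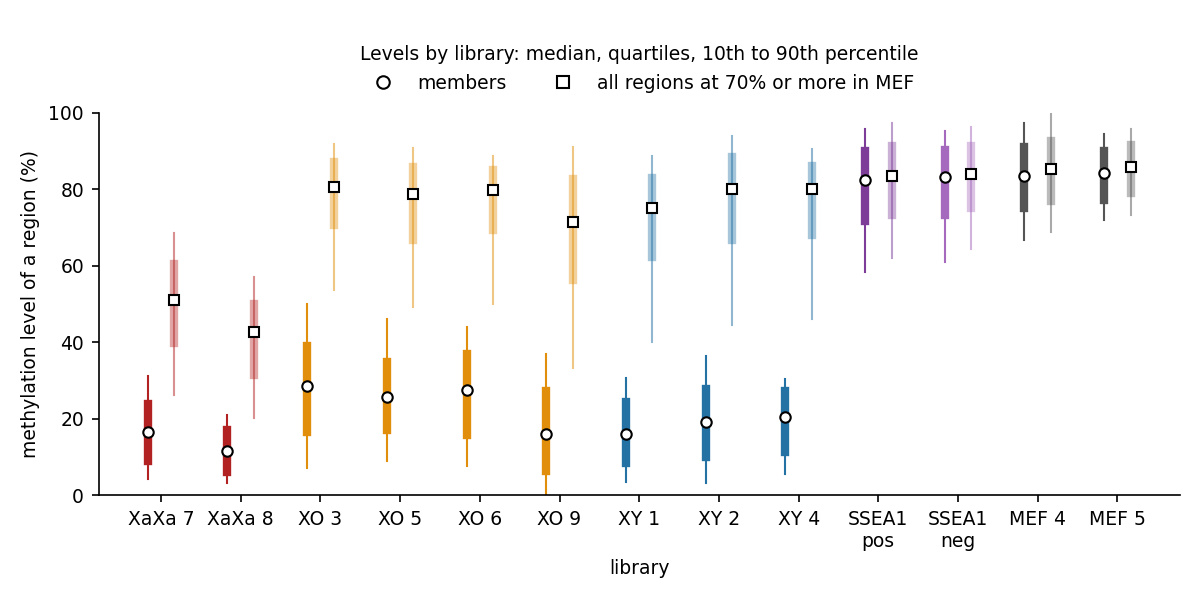
Methylation level (y axis, percent) of the members (circles) and of all regions at 70% or more in MEF (squares) in each of the 13 libraries (x axis); symbols are medians, thick bars quartiles and thin lines the 10th to 90th percentile over regions with 10 reads. Members have medians of 82.2% and 83.2% in the sorted cells and of 11.6% to 28.6% in the female iPSC libraries.

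In the female iPSC the same regions were low. The medians over members were 16.7% and 11.6% in XaXa 7 and 8, against 28.6%, 25.6%, 27.5% and 16.1% in XO 3, 5, 6 and 9. The mean of the library medians was 14.1% ± 3.57 in XaXa (SD, n = 2) and 24.5% ± 5.68 in XO (SD, n = 4). Over all regions at 70% or more in MEF, the same means were 46.8% ± 5.95 in XaXa and 77.7% ± 4.23 in XO. The 3 XY libraries, which chose the members, had medians of 16.0%, 19.05% and 20.4%. In XO 6 alone, the XO library with an X depth near that of male cells, the median of the members was 27.5%.

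Pooled over libraries, in which XaXa 8 and XO 6 weigh most, 97.4% of 6062 members with 20 reads were at 30% or less in XaXa and 55.6% of 6243 members in XO. Over all regions at 70% or more in MEF the shares were 20.1% in XaXa and 3.08% in XO. Few members were back at 70% or more, 1 in XaXa and 6 in XO. Under the naming rule given below, the highest in pooled XO (chromosome 2, 156505621 to 156505952) had 77.5%. It rested on 17, 15, 36 and 3 reads in XO 3, 5, 6 and 9, and had 25.8% and 22.4% in SSEA1 positive and negative cells. The highest in pooled XaXa under that rule (chromosome 11, 88462092 to 88462905) had 63.3%, over 12 and 37 reads in XaXa 7 and 8. Most of the members that left the low class in XO were at intermediate levels: in XO 6, 2748 of 6238 lay between 30% and 70% and 21 at 70% or more.

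**Figure D2:**
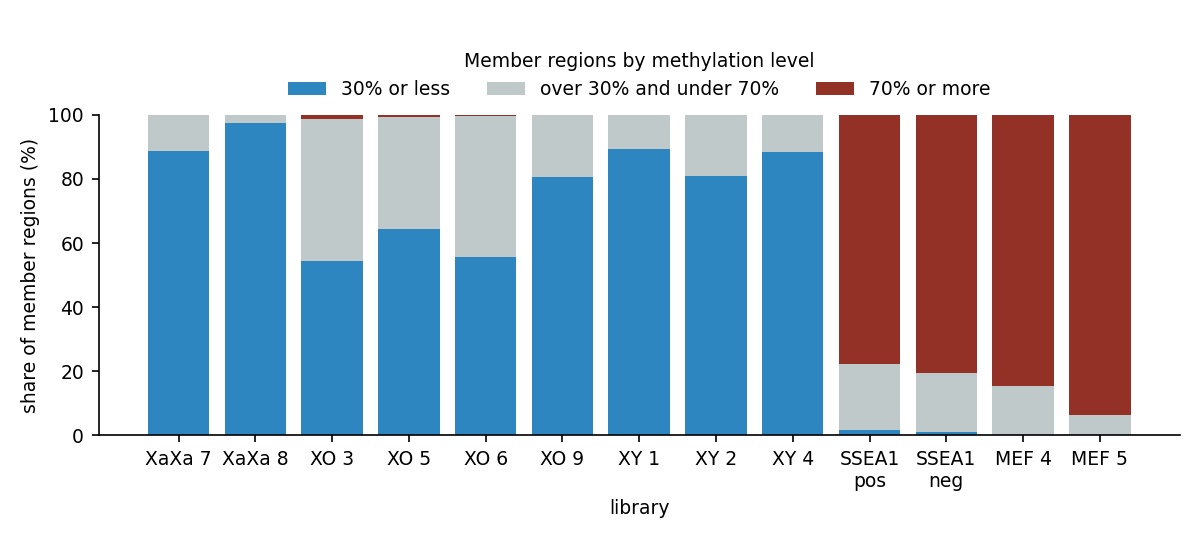
Share of the members (y axis, percent of members with 10 reads) at 30% or less, over 30% and under 70%, and at 70% or more in each library (x axis). The low class holds 88.6% and 97.6% of members in XaXa 7 and 8, 54.4% to 80.6% in the XO libraries, and 1.57% and 1.06% in SSEA1 positive and negative cells.

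The sorted populations were compared member by member. Of 4046 members with 20 reads in both, 768 were lower in SSEA1 positive cells by 10 points or more and 603 were higher. Over all 130919 regions, 18.6% were lower by that much and 15.0% higher, near the shares of the members, 18.98% and 14.9%. The median difference, positive minus negative, was -0.80 points over the members and -0.30 points over all regions. Both populations were at 70% or more in 2903 of the 4046 members and at 50% or less in 53. A further 130 were at 50% or less only in SSEA1 positive cells and 71 only in SSEA1 negative cells, which with 1 library each was not tested.

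The 5 members that were lowest in SSEA1 positive cells differed in their SSEA1 negative level. The lowest, of 3 CpG positions on chromosome 11 (60655126 to 60655926), had 0% in both sorted populations, over 20 and 28 reads. Its MEF levels were 50% over 2 reads in MEF 4 and 73.1% over 26 reads in MEF 5, so its choice rests mostly on MEF 5. A region on chromosome 2 (173044406 to 173044900) had 15.8% over 190 reads in SSEA1 positive cells and 36.6% over 71 reads in SSEA1 negative cells. A region of 5 CpG positions on chromosome 13 (104945328 to 104945527, mm9) had 15.1% (95% Wilson interval 10.1% to 22%) in SSEA1 positive cells and 15.7% (11.7% to 20.7%) in SSEA1 negative cells, against 79.4% and 91.4% in MEF 4 and 5. Low levels in both sorted populations set it and the region at 0% apart from most members. A region inside the span of Nxn, a gene of a redox protein, on chromosome 11 (76171083 to 76171595) had 15% in SSEA1 positive cells over 20 reads and 57.1% in SSEA1 negative cells over 35 reads. In the Arfgap3 gene, which serves vesicle transport, a region on chromosome 15 (83136056 to 83136833) had 15.2% over 33 reads in SSEA1 positive cells and 72.7% over 44 reads in SSEA1 negative cells. At the high end, a region on chromosome 13 (5097471 to 5097977) was fully methylated in the 22 reads of SSEA1 positive cells and had 21.1% and 14.99% in XaXa 7 and 8.

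The comparison of the libraries labelled XaXa with those labelled XO alone has replicates outside the choice. Since the X depths of XO 3, 5 and 9 were 1.21 to 1.38, against 1.02 in XO 6, it is a comparison of labels and not of measured X dosage. Of 3786 members tested, 2543 (67.2%) were lower in XaXa and 5 were higher, at an adjusted p under 0.05 (quasi-binomial model moderated with limma, Benjamini-Hochberg over all 114871 regions tested) and a difference of at least 10 points. Over all regions tested 84.9% were lower and 0.0183% higher. These shares cannot be set against each other as sizes of effect, because the members were chosen at 30% or less in XY iPSC and had a median pooled XO level of 28.0%, against 79.5% for all regions at 70% or more in MEF, which leaves less room for 10 points. The planned model treats the reads of a library as independent, and on simulated data with correlated reads it called unchanged regions. A fit that down-weights reads within a library, added after both counts had been seen, called 1274 members lower and 3 higher, and 80.3% of all regions lower and 0.0104% higher. In the simulation the planned fit called 1406 of 114671 unchanged regions and the down-weighted fit 0. The simulated reads had 1 constant correlation within a library, which is what the down-weighted fit assumes. Its 0 was thus favoured in advance and is no independent support for that fit. Of 100 regions lowered by 20 points they called 43 and 0, and of 100 lowered by 40 points 95 and 61. The changed regions were few and high in XO, unlike the members, so these rates may not hold for the members. In both fits 1259 members (33.3%) were lower, against 80.1% of all regions tested.

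These counts rest on XaXa 8. Without it, 320 members (8.45%) were lower in the planned fit, against 48.5% of all regions tested, with 1 XaXa library that is assumed to vary like the XO libraries. The down-weighted quasi-binomial fit then called 0 members and 0 regions in all, and 238 members (6.29%) were lower by 10 points at an unadjusted p under 0.05, against 47.3% of all regions tested. Without the libraries labelled XO 3, 5 and 9, 2898 of 5631 members (51.5%) were lower and 33 higher in the planned fit, against 73.7% lower and 0.124% higher of all regions tested. The down-weighted fit then called 1364 lower and 24 higher, against 70.4% and 0.107% of all regions. Of the 3786 members 3663 (96.8%) had a lower level in XaXa, the share over all regions tested being 96.9%, and the median difference was -14.34 points, against -31.45 points over all regions tested. In 1293 members (34.2%) both XaXa libraries lay below all 4 XO libraries, against 71.9% of all regions tested. The median ratio of XaXa to XO was 0.480 over the members and 0.552 over all regions tested; this difference was not tested.

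**Figure D3:**
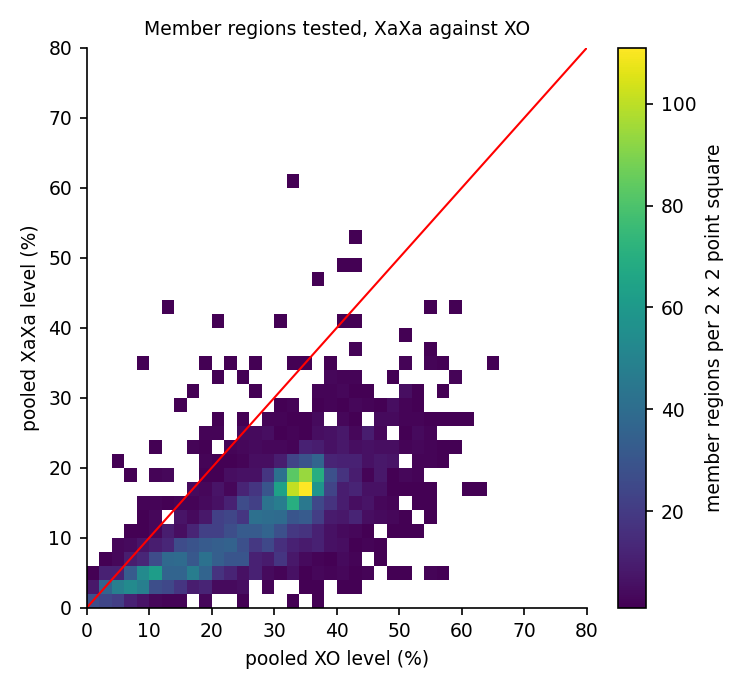
Pooled level in XaXa iPSC (y axis, percent) against pooled level in XO iPSC (x axis, percent) for the 3786 members tested; colour counts members per square and the red line marks equal levels. Nearly all lie below the line, and the densest square is near 34% in XO and 17% in XaXa.

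The 5 members with the largest difference called lower in XaXa were low in both XaXa libraries and uneven among the XO libraries. One of 2 CpG positions on chromosome 10 (108007027 to 108007172) had 8.79% and 4.13% in XaXa 7 and 8, against 18.99%, 10.9%, 80.3% and 64.3% in XO 3, 5, 6 and 9 (difference -52.9 points, adjusted p 0.00181, and 0.0120 with reads down-weighted). One on chromosome 17 (40324529 to 40324719) had 10.3% and 5.06% in XaXa, against 40.5%, 26.9%, 64.2% and 66.7% in XO. Neither pair of groups overlapped, and XO 6 and XO 9 were the high libraries in both regions. Another, on chromosome 2 (173116189 to 173116972), had 6.09% and 3.62% in XaXa, against 18.99%, 4.81%, 67.1% and 37.5% in XO, where XO 5 lay within the XaXa range. Without XO 6 its difference was -9.05 points and the call was lost, and at the chromosome 10 region the difference was -16.8 points. Without XaXa 8 the calls at the chromosome 10 and chromosome 2 regions were lost, at -48.9 and -44.9 points, and the one on chromosome 17 was not. Without XO 3, 5 and 9 the regions on chromosomes 10, 17 and 2 differed by -75.4, -58.3 and -63.1 points.

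All 5 members called higher in XaXa are named here. One on chromosome 17 (89003065 to 89003281) had 71.4% and 39.7% in XaXa 7 and 8, against 6.25%, 19.4%, 14.4% and 6.67% in XO (28.1 points, adjusted p 0.000828, and 0.00160 with reads down-weighted). Without XaXa 8 its difference was 57.5 points, and with reads down-weighted as well the call was lost (adjusted p 0.0696). Its levels in the sorted cells were 83.1% and 100% for positive and negative, so XaXa stood between XO and these. A region of 23 CpG positions on chromosome 19 (53772256 to 53772895) had 36.1% and 34.7% in XaXa, against 28.98%, 28.7%, 2.89% and 0% in XO; without XO 6 its difference was 9.47 points in place of 24.98, and the call was lost, as it was without XaXa 8 (26.2 points). Neighbouring regions on chromosome 17 (33015233 to 33015529 and 33016083 to 33016412) differed by 18.2 and 16.8 points, and the second lost its call with reads down-weighted, as did a region 1876 bases upstream of a start of Foxp1, a transcription factor gene (15.03 points, and 8.15 points and no call without XO 6, 10.5 points and no call without XaXa 8). Without XaXa 8 the first neighbouring region stood at 29.2 points and the second at -0.98 points. With reads down-weighted, the call at the first was lost without XaXa 7 (adjusted p 0.106) or XaXa 8 (0.0707). Without XO 3, 5 and 9 the 5 regions differed by 27.6, 32.0, 18.4, 15.8 and 18.6 points in the order given, and the planned call was lost at the fourth.

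Few members lay at gene starts. Starts could be placed for 13121 RefSeq promoters, and 238 members, 3.93% of those on chromosomes with such starts, lay within 1 kb of one. The share was 0.989% of all regions at 70% or more in MEF and 5.55% of all regions with enough reads; these differences were not tested. Within 10 kb lay 25.7% of the members, against 11.9% of the regions at 70% or more in MEF. No mm9 annotation was used, so exons, introns and UTRs are not given.

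The members at these starts belonged to 228 genes. A few with known roles in germ cells are described, chosen after their values were seen except Sycp2 and Stk31, which come from a list; no tally of such genes was made. Sycp2 encodes a protein of the synaptonemal complex of meiotic chromosomes. A member beginning 9 bases downstream of its start (chromosome 2, 178142043 to 178142354, 28 CpG positions) had 19.5% and 10.6% in XaXa 7 and 8, against 44.2%, 32.3%, 30.7% and 25% in XO 3, 5, 6 and 9. The groups did not overlap, and the difference of -20.9 points passed in both fits (adjusted p 3.84e-05, and 0.00864 with reads down-weighted); without XaXa 8 it was -12.6 points and not called, and without XO 3, 5 and 9 it was -19.5 points, called in the planned fit and not with reads down-weighted (0.0719). In sorted cells it was at 87.2% and 87.9% for positive and negative, and in MEF 4 and 5 at 90.4% and 87.1%.

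D1Pas1 is a testis-expressed RNA helicase gene related to Ddx3x. The member at its start (chromosome 1, 188791013 to 188791976, 34 CpG positions) had 3.21% and 3.18% in XaXa, against 8.23%, 12.8%, 38.8% and 17.1% in XO. The 4 XO libraries all lay above XaXa, with XO 6 the highest. The difference was -25.7 points (adjusted p 0.000232, and 0.0106 with reads down-weighted); without XO 6 it was -8.38 points, under the 10 points of a call, without XaXa 8 the call was lost at -25.67 points, and without XO 3, 5 and 9 it was -35.6 points. The neighbouring member, with 20 CpG positions, had 6.57% and 7.39% in XaXa, against 8.73%, 23.8%, 52.3% and 28.9% in XO.

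Rad51c, which acts in homologous recombination, and Tex14, which is needed for the bridges between male germ cells, lie side by side on chromosome 11. Each of the neighbouring members there was credited to its nearest placed start. The Tex14 member begins 693 bases downstream of the Tex14 start, so the Rad51c member may hold the starts of both genes. The Rad51c member (87218222 to 87218956, 36 CpG positions) had 5.69% and 2.53% in XaXa, against 6.53%, 8.11%, 4.78% and 2.15% in XO. Its groups overlapped and all 6 female libraries were below 10%. In SSEA1 positive and negative cells it was at 83.2% and 82.8%, and in MEF 4 and 5 at 74.5% and 85.3%. The Tex14 member (87219260 to 87219529) had 2.53% and 4.29% in XaXa, against 20.5%, 14.3%, 6.65% and 0% in XO, with 84.1% and 78.9% in SSEA1 positive and negative cells. Hormad2, a meiotic chromosome protein gene, had neighbouring members on chromosome 11. The one beginning 137 bases downstream of its start had 1.18% and 2.68% in XaXa, against 39.2%, 26.4%, 17.6% and 0% in XO, with 77.1% (48 reads) in SSEA1 positive and 42.4% (66 reads) in SSEA1 negative cells.

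**Figure D4:**
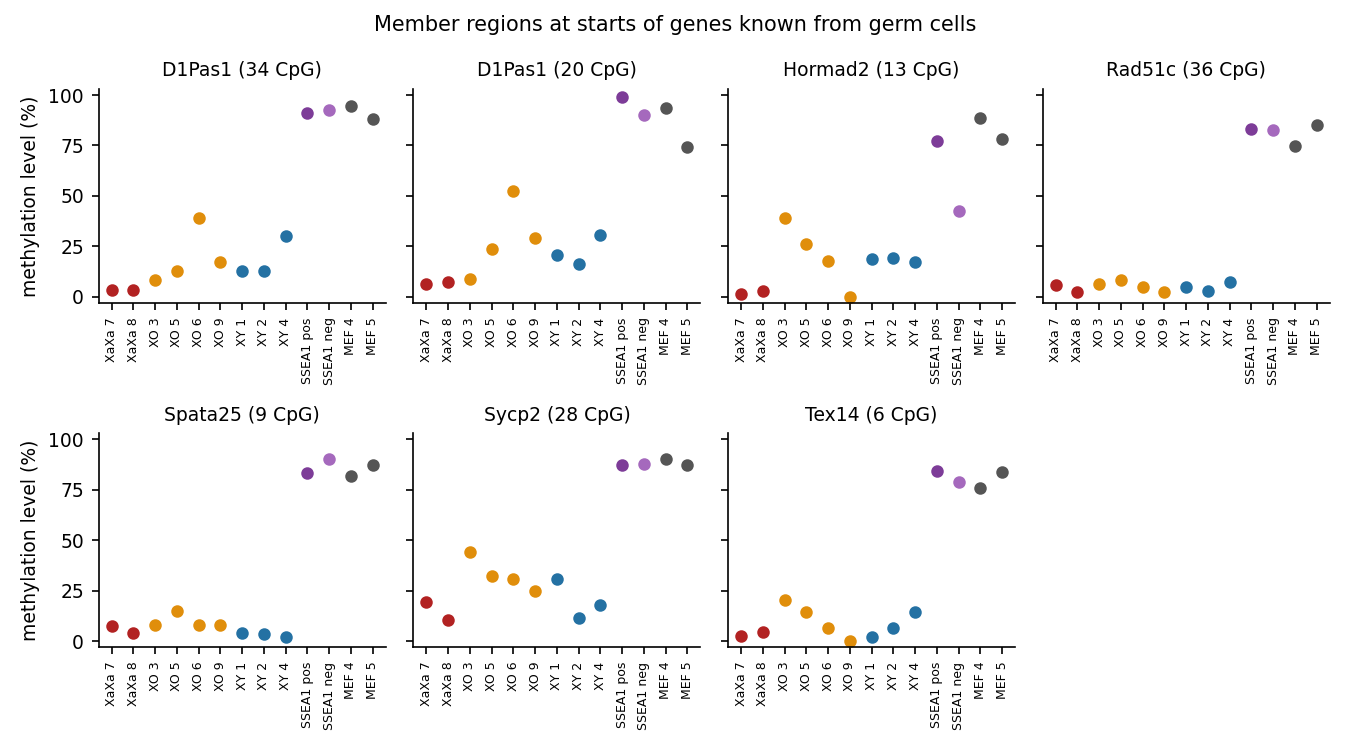
Methylation level (y axis, percent) in each library (x axis) of the 7 members within 1 kb of starts of genes known from germ cells that had 10 reads in every library; each point is 1 library. The sorted cells and MEF are high in each panel except for the SSEA1 negative library at Hormad2 (42.4%), and the female and male iPSC are low, with XO 6 at 52.3% in the second D1Pas1 panel.

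The planned gene lists touched few members. Of 19 listed germline genes, 13 had a placed start. Of these, 10 had a region at 70% or more in MEF within 1 kb and 2 had a member there, Sycp2 and Stk31. Of all 1253 regions at 70% or more in MEF within 1 kb of a start, 238 (18.99%) were members. That is a share of regions and cannot be set against a count of genes. Stk31, a kinase gene of the testis, rested on 60 reads in MEF and 43 in XY iPSC. A start was placed for 12 of 34 listed pluripotency genes, 10 of 18 epithelial genes and 7 of 19 fibroblast genes. Placing needed 3 CpGs with reads in the promoter sequence, and the other listed genes could not be examined. A region with enough reads lay within 1 kb of 10, 10 and 5 of the placed genes. None of these regions was at 70% or more in MEF, so none of the placed genes could have a member there. The most methylated region by each gene ranged in pooled MEF from 0% (Epcam and Tgfb1) to 68.7% (Krt8). Cldn4 and Pou5f1 also lay just under the threshold, at 66.8% and 66.7%. In XY iPSC, Krt8, Cldn4 and Pou5f1 had 30.7%, 1.63% and 12.8%. Within 10 kb, members lay by 3 of the 12 placed pluripotency genes (Pou5f1, Fgf4 and Mybl2) and 2 of the 10 epithelial genes (Epcam and Spint1). They lay by 2 of the 13 germline genes and 0 of the 7 fibroblast genes. The share over all genes with a placed start was not computed, so no difference between the lists is read from these counts.

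Pou5f1 encodes Oct4, a core pluripotency factor and one of the usual reprogramming factors. A region 25 bases from its start had 66.7% in pooled MEF, just under the threshold, so it was no member; it had 74.7%, 46.4%, 46.1% and 31.8% in XO 3, 5, 6 and 9 and 6.67% in XaXa 8. The member 2028 bases from the start (chromosome 17, 35645005 to 35645469, 6 CpG positions) had 1.52% and 0.285% in XaXa 7 and 8, against 2.27%, 0%, 0.660% and 0% in XO 3, 5, 6 and 9. All female libraries were near 0. In XY iPSC, which chose it, the levels were 26.2% over 3983 reads, 32.7% over 1419 reads and 0.865% over 694 reads in libraries 1, 2 and 4. The reads did not follow depth: XY 4 had 60276866 reads over all CpGs and XY 1 had 19605073. SSEA1 positive and negative cells had 66.3% and 68.0%, over 1456 and 1163 reads, and MEF 4 and 5 had 47.8% and 73.0%, over 46 and 1358 reads. The part of the uneven depth in these levels was not tested.

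Epcam encodes a surface protein of epithelial and pluripotent cells. A member 4409 bases from its start (chromosome 17, 88039728 to 88039946, 19 CpG positions) had 22.8% and 18.5% in XaXa, against 39.5%, 33.0%, 27.7% and 5.26% in XO, with 94.3% and 88.7% in SSEA1 positive and negative cells. XO 9 lay below XaXa there, so the groups overlapped. Its difference of -10.2 points passed in the planned fit (adjusted p 0.00901) and not with reads down-weighted (0.298), and it was under 10 points without XaXa 8, XO 3 or XO 5 (-6.43, -8.83 and -9.41 points) and without XO 3, 5 and 9 together (-8.69 points). A member 1727 bases from the start of Mybl2, a cell cycle transcription factor gene, was at 3.43% in pooled XaXa and 3.82% in pooled XO.

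The 10 members with the largest drop between pooled MEF and XY iPSC lay mostly within genes or far from any placed start. Chosen by those values, they still differed in the libraries outside the choice. One of 9 CpG positions on chromosome 8 (44266097 to 44266526) had 0% in both XaXa libraries, against 0%, 6.67%, 2.78% and 0% in XO, and 88.5% and 91.7% in SSEA1 positive and negative cells. One in Ube4b, a ubiquitin ligase gene (chromosome 4, 148754221 to 148754390), had 5% and 7.39% in XaXa, against 13.8%, 15.7%, 23.5% and 5.88% in XO, and 75% and 76.9% in SSEA1 positive and negative cells. None of the 10 was under 68.4% in SSEA1 positive cells.

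Members became more frequent with CpG number. They made up 2.54% of the regions at 70% or more in MEF with 1 to 4 CpG positions, 4.54% at 5 to 9, 6.98% at 10 to 19 and 17.99% at 20 to 39. The CpG-rich class was also higher in each female group, with medians of the pooled level of 16.7% in XaXa and 33.0% in XO, against 11.1% and 26.5% at 1 to 4 CpG positions, which was not tested. In SSEA1 positive cells the medians were 84.9% and 81.2% for these classes. Members with an arrangement of CpGs found at 200 or more places, described below, had a median of 20 CpG positions. The arrangement most frequent among members was in 902 of them, with medians of 17.6% in XaXa and 33.8% in XO. The shares and medians by CpG number were not recomputed without recurring arrangements, so their part in these differences was not tested.

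**Figure D5:**
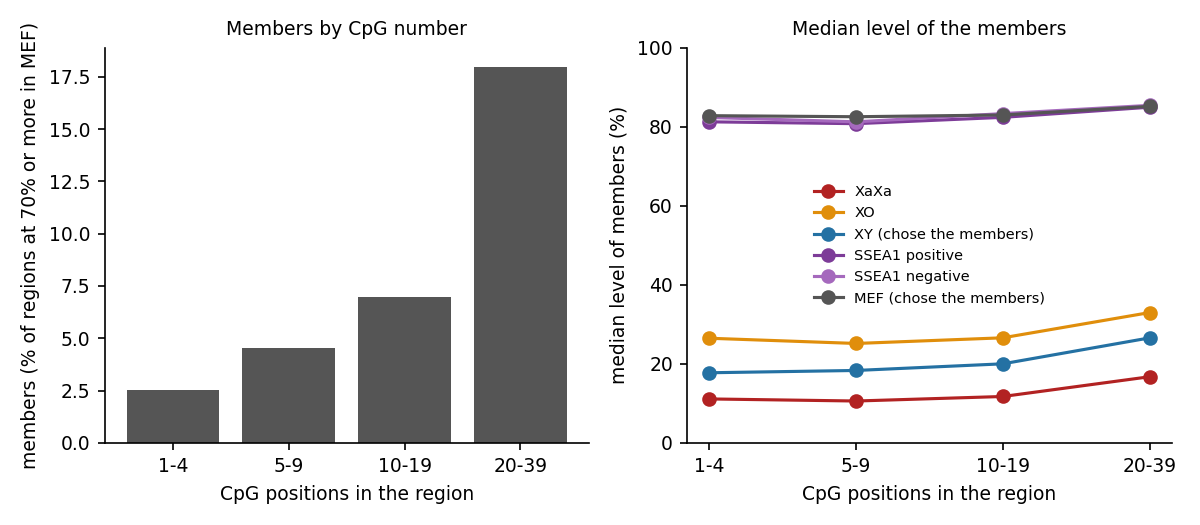
Left, members as a percent of the regions at 70% or more in MEF (y axis) by the number of CpG positions (x axis); right, median level of the members (y axis, percent) in each group. The share of members is 2.54% in the lowest class and 17.99% in the highest, and the XO median is above the XaXa median in all 4 classes. Regions with recurring arrangements of CpGs are included.

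Many CpG-rich members held the same arrangement of CpGs. A pattern was defined, after the data were seen, as the bases around 3 successive CpGs and the distances between them. In 1643 members (26.1%) a pattern found at 200 or more places occurred, against 24.2% of the regions at 70% or more in MEF. The most frequent among members, CCGC followed after 3 bases by CCGA and after another 37 by GCGC, was found at 3963 places and in 902 members on all 19 autosomes. Of the 1423 regions at 70% or more in MEF that held it, 63.4% were members. Their XY levels lay close together around the threshold, with a median of 28.8% and quartiles of 26.8% and 31.3%. The members that held it had medians of 17.6% in XaXa, 33.8% in XO, 85.9% in SSEA1 positive and 85.7% in SSEA1 negative cells, near the dense square in the plot of XaXa against XO. How reads of near-identical copies were assigned was not given in the sources used here, so such members may not be independent measurements. Some regions named in the text hold such patterns. They were found at 5796 places for the Nxn region, 3963 for the chromosome 13 region at 5097471, 1780 for the second D1Pas1 member and 1470 for Rad51c. The run of 80 CpG positions on chromosome 2, given below, holds one found at 3963 places. Of the 1239 tested members with a pattern at 200 or more places, 84.3% were lower in XaXa in the planned fit and 24.1% with reads down-weighted, while the 655 with a pattern at 1 place or none had 56.3% and 40.5%. Without the recurring patterns the mean of the library medians was 11.9% in XaXa, 22.2% in XO, 80.5% in SSEA1 positive and 81.6% in SSEA1 negative cells.

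The members were spread over the genome. Their share of the regions at 70% or more in MEF ranged from 3.71% on chromosome 13 to 6.07% on chromosome 11. Most stood alone: 5314 had no neighbouring member, 452 pairs were adjacent, and 25 runs held 3. The run with the most CpG positions (chromosome 2, 23793591 to 23795906, 80 CpG positions) averaged 14.2% in XaXa, 29.6% in XO, 82.7% in SSEA1 positive and 86.8% in SSEA1 negative cells. A run on chromosome 17 (46936821 to 46938490) averaged 1.90% in XaXa and 7.48% in XO, against 88.1% and 85.1% in SSEA1 positive and negative cells. Across 6047 members with 20 reads in both groups, the pooled XaXa and XO levels had a Pearson correlation of 0.682, and across 4046 members the SSEA1 positive and negative levels had one of 0.563; these are descriptions, and members share libraries, depth and CpG number.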

How the data were processed

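The authors deposited a table per library with, for each CpG, the count of all reads and of methylated reads and the methylated fraction; per the submitters' processing notes reads were aligned with BSMAP to mm9, and the version was not given in the sources used here. The deposited counts were not normalised, and the deposited fraction was not used further. Counts were summed over the CpGs of each 1 kb tile; a read over several CpGs counts at each, and PCR copies cannot be told apart, so intervals (95%, Wilson) cover counting error only and are too narrow. Precision follows depth, which differed about as widely as the read totals given above.

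Every region covered by 10 or more reads in all 6 XaXa and XO libraries was tested with the planned quasi-binomial model with 1 mean per group, dispersion moderated with limma 3.58.1 (squeezeVar) and kept at 1 or above, an F test and Benjamini-Hochberg adjustment. On simulated data with correlated reads this model called unchanged regions. The simulation held 1 constant correlation of reads within a library, which favours the second fit described next. A second fit, in which reads within a library are down-weighted by 1 correlation (0.021) set so that the mean dispersion is 1, called none of those and fewer of the changed regions. Several values of this correlation were tried, and the number of members each fit called was known before the second fit was adopted. It departs from the plan, so the planned fit stays the main one and both are given. XaXa and XO against XY iPSC or MEF were not tested, because XY iPSC and MEF chose the members.

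The members, gene lists and rules were chosen with earlier results of these data known. Only some of the regions picked by the rules below are described. Named regions are the 10 with the largest pooled difference between MEF and XY iPSC (3 CpG positions, 10 reads in each library), the lowest and highest 5 in SSEA1 positive cells and the highest 5 in XO and XaXa, the 5 largest called in each direction in XaXa against XO, the 3 nearest each threshold, the longest runs, and members within 1 kb of a start, of which some are shown. Starts were placed in mm9 after the data were seen, by matching the CpG spacing and flanking bases of RefSeq promoters (GRCm38.p6) to the deposited positions: 13143 of 31396 matched at 3 or more CpGs, 675 were ambiguous and left out, and 22 that did not lie beside their neighbours were dropped. The matching needed 4 CpGs in a first run and was lowered to 3. Chromosome 18 had no promoter sequence. Tools were R 4.3.3 and Python 3.11.15 with the packages pandas 2.3.3, numpy 2.4.6 and scipy 1.17.1.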

Additional observations from a re-analysis of the deposited data

Results flagged for a closer look

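Among 55 sets of 4 XO libraries examined at named regions and over all members, 4 held 1 library far from the other 3, and chance gives about 1 in 20. At Hsf5, a heat shock factor gene of the testis (chromosome 11, 87431001 to 87431560), XO 3 stood at 31.2%, with 17.6%, 18.3% and 16.1% in XO 5, 6 and 9. At a member upstream of Spata25 (chromosome 2, 164655020 to 164655748) XO 5 stood at 14.8%, with 8.11%, 7.71% and 8% in XO 3, 6 and 9. Beside Eno1, a glycolytic enzyme gene (chromosome 4, 149610319 to 149610984), XO 5 stood at 3.12% over 32 reads and the others at 0%. By Fgf4, a growth factor gene (chromosome 7, 152045204 to 152045665), XO 9 stood at 41.7% over 12 reads, with 31.8%, 32.7% and 32.0% in XO 3, 5 and 6.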

How the results depend on the processing

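No paired analysis was possible because XaXa and XO share no replicate number and no groups share 2 of them. There were 4145 members at 50 pooled reads, 2359 at 100 reads and 1836 at levels of 80% and 20%; leaving out 1 library gave 3540 to 7188, the lowest without MEF 5. Capped depth, shifted tiles, 3 CpG positions and equal library weights kept the number between 5068 and 6288. Over the alternatives run, the median of the members was 22.2% to 27.5% in XO and 11.6% to 16.7% in XaXa. It was 78.99% to 82.7% in SSEA1 positive and 79.99% to 83.4% in SSEA1 negative cells, lowest with the mean over members in its place. Leaving out 1 library gave 23.1% to 27.2% in XO and 11.6% to 16.7% in XaXa. With 2 or 4 libraries such a shift cannot exceed their SD, so it is no test of stability. The sorted cells, with 1 library each, have no spread to compare with. Members lower in XaXa numbered 1555 at 20 reads, 825 with limma on log2 ratios, 1274 with reads down-weighted and 1364 with reads down-weighted without XO 3, 5 and 9; leaving out 1 library gave 320 to 3439 in the planned fit and, with down-weighting, 0 without XaXa 8, 691 without XaXa 7 and 937, 978, 742 and 2364 without XO 3, 5, 6 and 9; 320 was without XaXa 8. Members higher in XaXa numbered 2 at 20 reads, 2 with limma, 33 without XO 3, 5 and 9, 3 with reads down-weighted and 24 with both; leaving out 1 library gave 2 to 10 in the planned fit and 0 to 4 with down-weighting. The counts between sorted cells were 280 lower and 172 higher at 50 reads, and 533 and 392 with MEF 5 left out of the choice. At 20 points they were 268 (6.62%) and 179 (4.42%) of 4046 members. The shares over all regions were not computed at these settings, so nothing is read from these counts about the members. Without XaXa 8 the sign turned at Hsf5 (14.1 points, range -14.8 to 14.1 over single libraries left out, and 12.6 with reads down-weighted) and in the second neighbouring region on chromosome 17 (-0.98 points, range -0.98 to 20.2, and -0.56 with reads down-weighted). The cause was not tested, except that 20 reads test fewer regions. Of the values of single named regions under an alternative, 365 kept their call or lack of one, 91 lost the call and 2 gained it. In 4 the sign turned at a region called in the main fit or the alternative. Turned signs where neither was called are within the 365. One is the Pou5f1 member at 35645005 (-0.32 points, and 0.0068 with reads down-weighted). Depth limits XO 9 and regions with few reads most.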

Other observations

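Regions next to a member that were themselves at 70% or more in MEF but no members numbered 1221. Their median pooled level was 27.8% in XaXa, 59.3% in XO and 52.9% in XY iPSC, against 45.0%, 80.1% and 79.8% for the 123631 that were not next to a member. In SSEA1 positive and negative cells the neighbours had medians of 86.8% and 87.5%, and the others 83.3% and 84.0%. These differences were not tested.

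The other listed germline genes with a region at 70% or more in MEF by their start had no member there. At Tex101, a testis surface protein gene, the pooled level was 48.2% in XaXa, 79.9% in XO, 79.8% in XY iPSC, 77.8% in SSEA1 positive cells and 87.9% in MEF. At Sycp1, a synaptonemal complex gene, it was 29.6% in XaXa, 57.9% in XO, 53.4% in XY iPSC, 66.0% in SSEA1 positive cells and 70.8% in MEF. At Slc25a31, a testis ATP carrier gene, it was 15.2% in XaXa, 47.8% in XO, 46.1% in XY iPSC, 93.4% in SSEA1 positive cells and 91.4% in MEF. These have pooled values only and were not tested.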
